A study of Rattus norvegicus with 21 samples.

Results

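The hippocampus was compared with the cerebral cortex of the same group of rats 48 h after their last exposure to hypobaric hypoxia, the thin, oxygen-poor air of high altitude. The comparison rests on 6 of the 21 RNA-seq libraries, 3 of hippocampus and 3 of cortex, and on the 14909 of 30560 Ensembl gene IDs whose normalized read count averaged at least 10 over these 6 libraries. The gene nearest the limit on the inside averaged 10.01 and the one nearest on the outside 9.99, and 6572 further IDs had reads below it. The genes kept held 99.9% of the normalized reads.

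The rats were wild-type males of the SD strain, 4 weeks old when the study began. In a decompression chamber the exposed animals were taken 6 times, every 3 days, to the air pressure of 28000 ft, where they stayed for 5 min. The 48 h group held 3 rats. The other assigned libraries came from hippocampus (3 libraries) and cortex (3) of rats killed 24 h after the last exposure, and from hippocampus (4) and cortex (4) of control rats kept at normal oxygen. Each library is bulk tissue, so fewer cells of a type and less RNA per cell cannot be told apart.

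The hippocampus is a folded sheet of evolutionarily older cortex. Its granule cells of the dentate gyrus and its fields of pyramidal cells form a chain of connections that is needed to lay down memories of places and events. The cerebral cortex dissected beside it is mostly layered neocortex, whose excitatory neurons differ by layer and by the region they project to. Hippocampal pyramidal neurons are known as a population that is easily damaged by lack of oxygen. The deposited table gives gene IDs without names, and the reference gene table paired 0 of the 30560 IDs with a symbol, so marker genes of the tissues and their cell types were not analysed here and the tissue labels were not checked against them. Genes are therefore described as groups of IDs, and 4 IDs are given as examples.

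Reads in genes ranged from 11214566 to 17190155 over the 6 libraries, and 18502 to 18950 IDs had at least 1 read. Hippocampus libraries agreed less well with one another than cortex libraries did. On the log2(value + 1) scale, Pearson's r across the 14909 genes was 0.957 between hippocampus replicates 1 and 2, 0.925 between 1 and 3, and 0.911 between 2 and 3. Among the cortex replicates it was 0.962 to 0.977, and between a hippocampus and a cortex library 0.860 to 0.904. The SD per gene had a median of 0.28 log2 units in hippocampus and 0.20 in cortex (n = 3 each), and was the larger in hippocampus for 65.1% of genes. A range of at least 4-fold among the 3 libraries of a tissue was found for 1026 genes (6.88%) in hippocampus and for 383 genes (2.57%) in cortex. Of these 1026 genes, 616 had their highest value in hippocampus replicate 3, 209 in replicate 2 and 201 in replicate 1.

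Hippocampus and cortex differed widely at 48 h. 2796 genes, 18.8% of those tested, passed an adjusted p of 0.05 in limma (two-sided, Benjamini-Hochberg adjustment over all 14909 genes). Of these, 1233 (8.27% of genes tested) were higher and 1563 (10.5%) were lower in hippocampus. The median difference was 1.12 log2 units among genes higher in hippocampus and -1.24 among genes lower there, against 0.02 over all genes tested. The scaling to size factors sets the middle of all genes near 0. The 3 hippocampus libraries lay above all 3 cortex libraries for 3052 genes (20.5%) and below all of them for 3217 (21.6%), and these included all 2796 called genes.

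**Figure D1:**
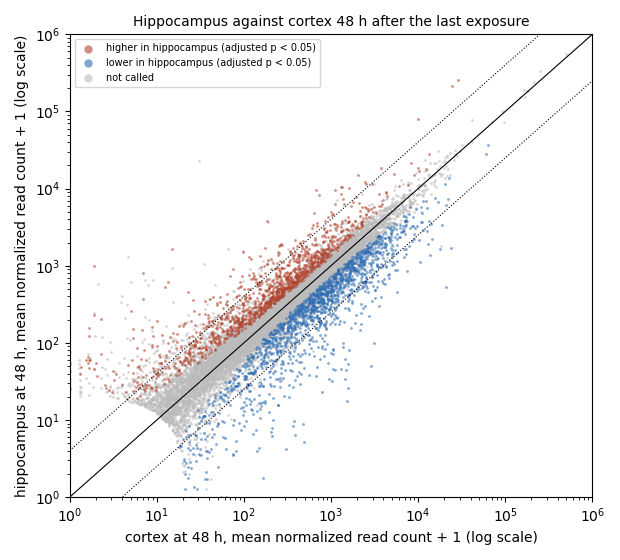
Mean normalized read count plus 1 of each gene in hippocampus (vertical axis) and cortex (horizontal axis) at 48 h, 3 libraries each, both on log scales, with the line of equal levels (solid) and of 4-fold differences in the means (dotted). The 1233 genes called higher in hippocampus lie above the solid line and the 1563 called lower lie below it.

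Among the genes called by limma, more of the large differences were toward lower levels in hippocampus. At least 2-fold differences among the called genes numbered 703 higher and 1001 lower in hippocampus. At least 4-fold differences numbered 223 higher (1.5% of genes tested) and 360 lower (2.41%). At least 16-fold there were 28 higher and 59 lower, and at least 64-fold 4 higher and 8 lower. The imbalance was smaller by DESeq2, which called 353 genes at least 4-fold higher and 384 at least 4-fold lower, and over all genes with at least 4-fold differences, called or not, of which 355 were higher and 447 lower. The pseudocount of 1 in these folds makes them too small for genes with few reads.

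The share called grew with the number of reads behind a gene up to a mean of 10000. It was 11.4% of 4135 genes with a mean of 10 to 100, 19.6% of 8205 genes between 100 and 1000, and 28.2% of 2472 genes between 1000 and 10000. Above 10000 it was 22.7% of 97 genes. In the range of 1000 to 10000 the called genes were 228 higher and 470 lower in hippocampus. Among genes with a mean of 10 to 100 they were close to even, at 241 higher and 229 lower. The median standard error was 0.39 log2 units in the lowest range and 0.17 between 1000 and 10000.

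The intervals also show where the tissues were close. The 95% interval of the difference reached a median of 0.52 log2 units to either side. It lay wholly within a 2-fold difference for 7637 genes (51.2%), 330 of which were called. It lay wholly beyond a 2-fold difference for 297 genes higher and 472 genes lower in hippocampus.

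The example IDs are the 2 largest called differences in each direction among genes with no overlap between the tissues and a mean of at least 100 in the higher one. The separation of their 48 h libraries is therefore no further support. ENSRNOG00000012478 had normalized read counts of 455, 230 and 2260 in hippocampus replicates 1, 2 and 3, against 1.08, 1.66 and 0 in cortex replicates 1, 2 and 3. All hippocampus libraries were high, replicate 3 far above the other two, while the cortex values stand for 1, 2 and 0 reads. The log2 difference was 8.45 (SE 0.83, limma adjusted p = 0.00291). The ratio of summed reads, scaled for depth, was 936, with a counting interval of 320 to 4542 that leaves out the spread between libraries.

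ENSRNOG00000012742 had 190, 457 and 43.6 in hippocampus, against 1.08, 1.66 and 0 in cortex. The hippocampus libraries were again all high, in another order than for the first ID. The log2 difference was 6.48 (SE 0.87, limma adjusted p = 0.00547), and the ratio of reads was 267 (counting interval 91.2 to 1299).

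ENSRNOG00000057315 had 26.4, 1.62 and 22.4 in hippocampus, against 1076, 1598 and 1860 in cortex. Cortex was uniformly high and hippocampus low, with 2 reads in its replicate 2. The log2 difference was -6.96 (SE 0.85, limma adjusted p = 0.00462).

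ENSRNOG00000047891 had 2.20, 3.24 and 174 in hippocampus, against 1789, 1298 and 1248 in cortex. Hippocampus replicate 3 lay far above the other two and still below every cortex library. The log2 difference was -6.74 (SE 1.41, limma adjusted p = 0.0199). edgeR did not keep this call (adjusted p = 0.0508), and limma lost it without any 1 of 5 libraries, the exception being hippocampus replicate 3.

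**Figure D2:**
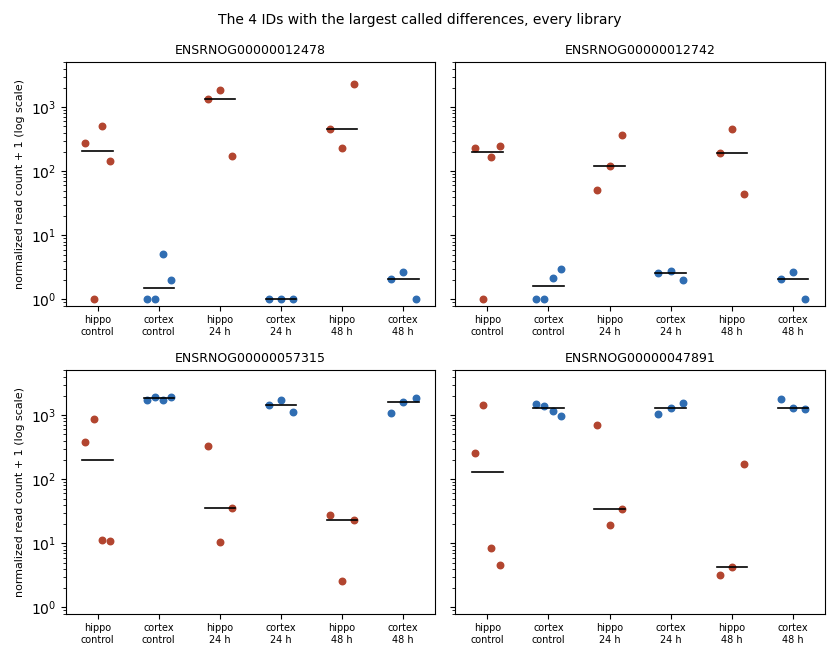
Normalized read count plus 1 (log scale) of the 4 example IDs in all 20 assigned libraries, with hippocampus in red, cortex in blue and a line at each group's median. Hippocampus and cortex do not overlap at 48 h. A single control hippocampus library (replicate 2) sits with the cortex libraries for ENSRNOG00000012478, ENSRNOG00000012742 and ENSRNOG00000047891. For ENSRNOG00000057315 it is the highest control hippocampus library and lies below every cortex library.

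The same IDs were then read in the 14 libraries of controls and 24 h, which had no part in choosing them. ENSRNOG00000012478 had 272, 0, 511 and 144 in control hippocampus, against 0, 0, 4.16 and 0.998 in control cortex. At 24 h it had 1353, 1828 and 175 in hippocampus, against 0 in all 3 cortex libraries. Over the 14 libraries, averaging both exposure groups, its log2 difference was 7.40 (SE 1.19, limma adjusted p = 0.00380), and ENSRNOG00000012742 differed by 5.44 (SE 1.09, limma adjusted p = 0.0117).

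ENSRNOG00000057315 had 384, 868, 10.2 and 9.99 in control hippocampus, against 1736, 1944, 1743 and 1897 in control cortex. Its hippocampus levels fell into a low and an intermediate pair, all below cortex. Over the 14 libraries it differed by -4.66 (SE 1.01, limma adjusted p = 0.0172). ENSRNOG00000047891 differed by -4.18 (SE 1.18) and missed the threshold there (limma adjusted p = 0.0525). For this ID hippocampus control 2 held 1441 and hippocampus 24 h replicate 2 held 689, against 955 to 1539 in the 7 cortex libraries.

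Some genes were on in one tissue and almost off in the other. With a mean of at least 50 in one tissue and no more than 5 in every library of the other, limits chosen after seeing the data, 27 genes were on in hippocampus and almost off in cortex, and 5 the reverse. The hippocampus genes averaged 51.5 to 982 there, and the cortex genes 53.8 to 165. Both groups were chosen on these 48 h values, so the following counts only describe them. Of the 27 hippocampus genes, 25 spanned at least 4-fold among hippocampus libraries, against 6.88% of all genes tested, and 12 were called, against 18.8% of all genes. As the limit was set on a mean, it can be met through 1 library. The highest value lay in hippocampus replicate 2 for 14 of the 27, in replicate 1 for 8 and in replicate 3 for 5. Of the 5 cortex genes, 2 spanned at least 4-fold among cortex libraries, against 2.57% of all genes, and 5 were called.

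Many large differences were not called. Of 355 genes at least 4-fold higher in hippocampus, 132 (37.2%) were not called, and of 447 at least 4-fold lower, 87 (19.5%) were not. The 132 uncalled genes had a median range of 18.6-fold among the hippocampus libraries, and the 87 uncalled genes one of 2.34-fold among the cortex libraries. Hippocampus replicate 3 held the highest value of 73 of the 132. The most abundant of them had 739, 243 and 67787 normalized reads in hippocampus replicates 1, 2 and 3, against 37.6, 44.1 and 5.95 in cortex. All hippocampus libraries were above all cortex libraries, but 1 of them held nearly all of the signal, and the difference of 6.65 log2 units (SE 1.98) missed the threshold (limma adjusted p = 0.0574). This gene ranged from 19.1 to 932 in control hippocampus and from 113 to 3961 in hippocampus at 24 h, against 30.0 to 56.2 in control cortex and 18.5 to 628 in cortex at 24 h. The part of any 1 cell type in this unevenness was not tested.

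The called genes did not move alike in the 3 hippocampus libraries. Of the 223 genes at least 4-fold higher in hippocampus, 139 had their highest value in replicate 2, 46 in replicate 3 and 38 in replicate 1. Their median range among these libraries was 2.22-fold, against 1.67-fold among cortex libraries for the 360 genes at least 4-fold lower in hippocampus. Of these 360, 195 were highest in cortex replicate 3, 99 in replicate 1 and 66 in replicate 2. In hippocampus the 360 genes kept a median of 13.6%, 10.7% and 14.4% of their mean cortex level in replicates 1, 2 and 3. In cortex the 223 genes kept 20.3%, 13.5% and 11.7% of their mean hippocampus level in replicates 1, 2 and 3.

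Both gene groups took a visible share of the reads. Genes called higher in hippocampus held 12.9%, 17.6% and 12.2% of normalized reads in hippocampus replicates 1, 2 and 3, against 5.56%, 4.83% and 4.41% in the cortex replicates. Genes called lower held 7.42%, 6.75% and 9.24% in hippocampus, against 17.9%, 19.3% and 19.5% in cortex. These shares describe genes picked on the same values. In the other libraries the genes called higher held 9.81% to 17.0% in hippocampus and 4.50% to 7.39% in cortex, so the 2 tissues did not overlap. The genes called lower held 5.91% to 13.04% in hippocampus and 11.4% to 18.8% in cortex, and here they did.

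The tissue difference of the 48 h rats was largely present in the other rats. Of the genes called at 48 h, 1230 higher and 1550 lower in hippocampus were also tested in the 14 other libraries. There 1204 (97.9%) of the first and 1474 (95.1%) of the second had the same sign, against 76.2% of all 14700 genes tested in both. A limma fit of the 14 libraries called 964 genes, 6.42% of 15017, of which 571 (3.8%) were higher and 393 (2.62%) lower in hippocampus. It called 388 (31.5%) of the 1230 genes and 301 (19.4%) of the 1550 in the same direction, and 0 in the opposite one. The 2 sets of libraries share no sample.

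Seen from the other side, genes called in the 14 libraries are a choice that used no 48 h value. Of the 564 such genes higher in hippocampus and tested at 48 h, 558 had the same sign at 48 h and 388 (68.8%) were called there, against 8.27% of all genes. Of the 389 lower in hippocampus, 388 had the same sign and 301 (77.4%) were called, against 10.5% of all genes. Their median difference was 1.46 at 48 h, against 1.33 in the 14 libraries that chose them, for genes higher in hippocampus, and -1.60 against -1.37 for genes lower there. Several of the 14 libraries lay apart from others of their tissue, as given below, so the larger 48 h medians are no measure of a change with exposure. Across the 14700 genes, which are not independent replicates, the differences at 48 h and in the 14 libraries had a Pearson's r of 0.836 and a Spearman's rho of 0.727.

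**Figure D3:**
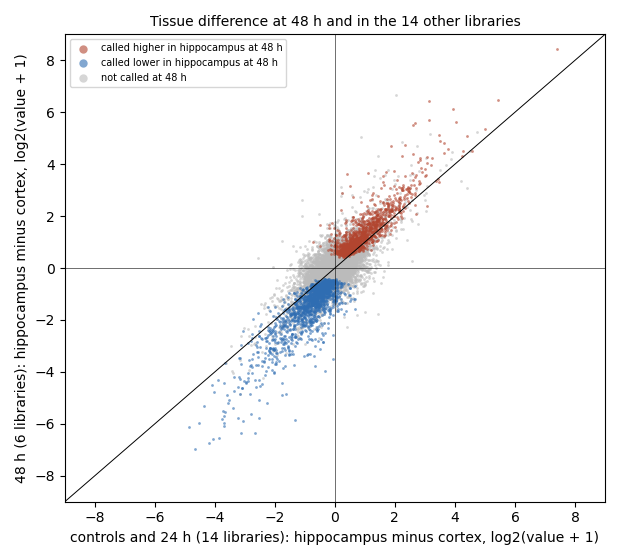
Hippocampus minus cortex on the log2(value + 1) scale for each of 14700 genes at 48 h (vertical axis, 6 libraries) and in controls and 24 h together (horizontal axis, 14 libraries), with the line of equal differences. Genes called at 48 h, in red and blue, mostly lie in the quadrants of the same sign, and 0 of them were called in the opposite direction in the 14 libraries.

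By exposure group, the 220 genes at least 4-fold higher in hippocampus at 48 h and tested elsewhere had a median difference of 1.93 in controls, 2.13 at 24 h and 2.58 at 48 h. The 349 genes at least 4-fold lower had -1.71 in controls, -1.79 at 24 h and -2.74 at 48 h. 217 and 219 of the first group kept their sign in controls and at 24 h, and 341 and 344 of the second. Of all genes tested in both, 74.8% had the same sign in controls as at 48 h, and 67.9% at 24 h. As these genes were picked at 48 h for their size, a smaller median elsewhere is no measure of a change with exposure.

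Whether the tissue difference changed with exposure was tested directly as the difference of the tissue differences, in a limma fit of all 20 libraries and 15017 genes. Set against controls, 0 genes (0%) passed. The lowest adjusted p was 0.998, and an unadjusted p under 0.05 was reached by 198 genes. Set against 24 h, 0 passed, the lowest adjusted p was 1, and 513 genes reached an unadjusted p under 0.05. edgeR called 0 in both, with 379 and 549 at an unadjusted p under 0.05, and DESeq2 called 0 and 2, with 504 and 760. If no gene changed, a share of about 0.05 of the 15017 genes would reach an unadjusted p under 0.05. The limma and edgeR counts and the DESeq2 count against controls lay below that share. The DESeq2 count against 24 h lay near it. These counts from the fits of all 20 libraries are therefore alone no sign of change. The limma counts at an unadjusted p under 0.05 changed when 1 library was left out. Against controls they ran from 86 (without cortex control 3) to 408 (without hippocampus control 1), and against 24 h from 172 (without cortex 24 h replicate 3) to 1337 (without hippocampus control 1). This 1337 lay above a share of 0.05 of the genes tested. So did the counts against 24 h without hippocampus 24 h replicate 4 (1132) and without hippocampus 48 h replicate 3 (896). In each of these fits 0 genes passed. Control libraries are not among the groups compared in the test against 24 h. They enter it only through the gene filter and the shared estimate of the spread. The median 95% interval reached 1.05 log2 units to either side against controls and 1.12 against 24 h. It lay within a 2-fold change for 27.1% and 20.9% of genes, so moderate changes of the tissue difference were not detectable for most genes. None of the 4 example IDs passed either test (limma adjusted p = 0.998 against controls and 1 against 24 h for each).

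Several libraries of controls and 24 h lay apart from others of their tissue in the levels of genes chosen at 48 h. Their part in the width of these intervals was not tested. The 360 genes at least 4-fold lower in hippocampus at 48 h had a median level, as a percentage of their 48 h cortex mean, of 19.5%, 46.5%, 15.7% and 15.0% in control hippocampus, against 93.4%, 102%, 27.8% and 77.2% in control cortex. At 24 h it was 45.3%, 16.0% and 11.3% in hippocampus replicates 2, 3 and 4, against 76.1%, 55.0% and 85.6% in cortex replicates 2, 3 and 4. Hippocampus control 2 and hippocampus 24 h replicate 2 thus held these genes at a higher median level than cortex control 3. For the 223 genes at least 4-fold higher in hippocampus, hippocampus control 2 held 55.3% and hippocampus 24 h replicate 2 held 57.1% of the 48 h hippocampus mean. The other 5 hippocampus libraries of those groups held 66.4% to 131%, and the 7 cortex libraries 13.02% to 31.9%. These medians hide a difference in spread over the genes. The quartiles were 12.8% and 80.3% in hippocampus control 2, and 41.6% and 71.6% in hippocampus 24 h replicate 2. In hippocampus control 2 the lower quartile thus lay below the lowest of these cortex medians. Cortex control 3 held a median of 20.3% over the 223 genes, close to the 20.3%, 18.4% and 19.6% of cortex controls 1, 2 and 4. By the median it stood apart from them over the 360 genes alone. Its upper quartile over the 223 genes was 37.2%, against 27.7%, 24.6% and 28.5% in cortex controls 1, 2 and 4. Genes called higher in hippocampus at 48 h took 7.39% of its normalized reads, against 5.86%, 5.43% and 5.55% of theirs. At 48 h the 360 genes held 10.7% to 14.4% in hippocampus and 92.4% to 111% in cortex, a separation fixed by choosing the genes on these libraries, which therefore does not show whether any of the 6 lay off its tissue. Hippocampus control 1 had 4654096 reads in genes, and the other 19 assigned libraries had at least 11214566. A further fit left out 5 libraries chosen after seeing these values (hippocampus controls 1 and 2, cortex control 3, hippocampus 24 h replicate 2 and cortex 24 h replicate 3). In it 0 genes passed either test of the difference of tissue differences. An unadjusted p under 0.05 was reached by 483 genes against controls and 679 against 24 h, both below a share of 0.05 of the 14868 genes tested.

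**Figure D4:**
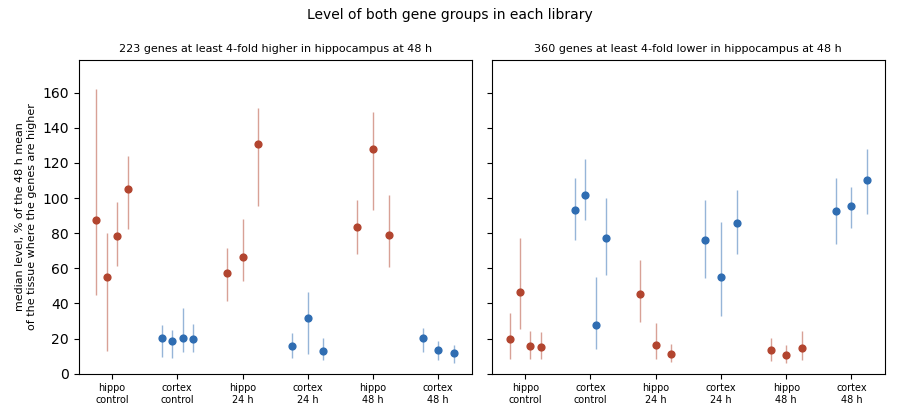
Median level of the 223 genes at least 4-fold higher (left) and the 360 genes at least 4-fold lower (right) in hippocampus at 48 h, in each of the 20 assigned libraries, as a percentage of the genes' 48 h mean in the tissue where they are higher; lines span the quartiles over genes. The gap at 48 h is fixed by the choice of genes. Among the controls, hippocampus control 2 (46.5%) and cortex control 3 (27.8%) cross over in the right panel. In the left panel the median of cortex control 3 (20.3%) lies with the other cortex controls, and its upper quartile (37.2%) lies above theirs.

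The number of genes called at 48 h changed when 1 library was left out. Each such fit sets 3 libraries against 2, so a lower count does not by itself point to the library left out. It was 901, 1166 and 1611 without cortex replicates 2, 3 and 1, 1478 and 1736 without hippocampus replicates 2 and 1, and 4243 without hippocampus replicate 3. With all 20 libraries sharing 1 estimate of the spread it was 795, of which 364 were higher and 431 lower in hippocampus.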

How the data were processed

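Per the labels' protocols, RNA was taken up in TRIzol and turned into stranded mRNA libraries. fastp 0.20.0, HISAT2 2.1.0 and featureCounts 2.0.1 (Subread) are named in the submitters' processing notes. Build, annotation and strand setting were not given in the sources used here. Values were deposited as 1 table of signal per gene, which is the number of reads over a size factor of the library. Dividing each of the 21 columns by its smallest non-zero value gave whole reads within 0.001 for 100% of values. In 4 columns this step was close to 1, and the same division was applied to them.

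Groups came from the titles. 1 library with conflicting tissue labels entered no comparison. The labels do not say which number names which rat. Both tissues at 48 h came from the same group of 3 rats, while the main fit is unpaired. Its p-values rest only on the spread between these libraries. Libraries of a group differed far beyond sampling noise at 48 h (chi-square per degree of freedom 18.52 to 97.28). Between a hippocampus and a cortex library the same measure was 92.64 to 236.2. The 2 ranges overlapped: hippocampus replicates 2 and 3 gave 97.28, and hippocampus replicate 3 with cortex replicate 1 gave 92.64. The ranges of Pearson's r given above did not overlap.

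log2(value + 1) was tested with limma 3.58.1 in R 4.3.3 (lmFit, eBayes with an intensity trend, two-sided, adjusted p under 0.05), in the 6 libraries for 48 h and in all 20 for the difference of tissue differences. Scaling by size factors would remove a shift shared by most genes. The 14-library fit was added after seeing the data. edgeR 4.0.16 and DESeq2 1.42.0 were run on recovered reads as alternatives, beside the pseudocount, filter, scaling, variance trend, block and leaving out libraries. Code was checked on simulated counts. The genes, lists and comparisons were chosen with earlier results of these data known. Because 0 IDs were paired with a symbol, 45 gene lists were not used, and the rule for named genes gave the 2 IDs with the largest called, non-overlapping difference in each direction (mean of at least 100 in the higher tissue).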

Additional observations from a re-analysis of the deposited data

Results flagged for a closer look

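For 7 measures used in the text, the 4 control libraries of each tissue were searched for one lying far from the rest, which made 14 tests, and chance alone gives about 1 hit in 20. 2 libraries stood apart. Hippocampus control 1 had 4654096 reads in genes. Hippocampus control 2 held a median of 46.5% of the 48 h cortex level over the 360 genes at least 4-fold lower in hippocampus at 48 h, and the other 3 control hippocampus libraries held 15.0% to 19.5%. Cortex control 3 was not flagged by this search, and the 24 h libraries were not searched.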

How the results depend on the processing

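Of the 2796 genes called at 48 h, 2772 and 2784 were also called with a pseudocount of 0.1 and 5, 2773 with TMM factors, 2585 after quantile normalization, 2657 by edgeR and 2789 by DESeq2, and all 2796 kept their sign in each. Fewer were called with no intensity trend (2222), with the replicate block (1824, or 65.2%) and with all 20 libraries in the fit (782). Without hippocampus replicate 3 it was 2652, and without each of the other 5 libraries 897 to 1604 (32.1% to 57.4%). The fit of all 20 libraries gave 795 calls, 364 higher and 431 lower in hippocampus, and 146 higher and 211 lower by at least 4-fold. DESeq2 called 1877 higher and 2029 lower, 353 and 384 of them by at least 4-fold. The counts without 1 library each ran from 901 to 4243 in all, from 334 to 1905 higher, from 567 to 2338 lower, from 133 to 288 at least 4-fold higher and from 230 to 503 at least 4-fold lower. The replicate numbers showed no sign of pairing the tissues, though the labels do not say whether they do: deviations from the group means correlated at 0.03, -0.01 and -0.01 for numbers 1, 2 and 3, and not every library correlated best with its own number. With the replicate block 1953 genes were called, 809 higher and 1144 lower. In the 14 other libraries the block gave 572 calls, DESeq2 2109, and leaving out 1 library 402 to 2002. For the difference of tissue differences each alternative gave 0 calls (leaving out each of 20 libraries too, 0 to 0), except that DESeq2 called 2 against 24 h. Of the example IDs, 3 kept their call in all 17 alternatives. ENSRNOG00000047891 lost it in 6 of the 16 that gave an adjusted p, with log2 differences from -8.60 to -4.63, and DESeq2 gave it none. The cause of these shifts was not tested. Genes with a mean of 10 to 100 had the largest median standard error, and the 48 h libraries came from 3 rats.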

Other observations

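The library with conflicting labels, titled as hippocampus at 24 h and described as cortex tissue, was used in no comparison. Over the 223 genes at least 4-fold higher in hippocampus at 48 h it held a median of 86.7% of the 48 h hippocampus level, and over the 360 genes at least 4-fold lower a median of 23.6% of the 48 h cortex level. Genes called higher in hippocampus at 48 h took 13.1% of its normalized reads, and genes called lower 9.65%.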
